A study of Mus musculus with 4 samples.

Results

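The genes described are 10 members of the Notch pathway that are active in blood vessels: the receptors Notch1, Notch3 and Notch4, the ligands Dll4 and Jag1, the target genes Hey1, Hey2, Heyl and Hes1, and Rbpj, the DNA-binding factor of the pathway. They were chosen by symbol, and all 10 were found among the 31053 features of the deposited count matrices. Their UMIs (unique molecular identifiers, one per captured mRNA molecule) were read in 5 classes of the vessel wall, which are arterial-like, capillary-like and venous-like endothelial cells, pericyte-like cells and smooth muscle-like cells. None of the 10 genes was used to define a class.

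Single cells were prepared from 1 brain hemisphere of male C57/BL6 mice, 8 weeks old by the labels, with no transgene. In transient middle cerebral artery occlusion (tMCAO) a filament is advanced to the middle cerebral artery and later withdrawn, so that the tissue is first deprived of blood and then reperfused. The ipsilateral hemisphere was taken 1, 3 or 7 days into recovery from tMCAO, and the same hemisphere of the sham group was taken on day 7 after surgery. Each group is 1 library of the 10x Genomics 3′ assay, made after perfusion, papain digestion and a Percoll step, and the number of mice behind a library was not stated. There is thus no replicate. No p-value is given, every 95% interval below covers counting error only, and the day after surgery cannot be told apart from the library.

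Notch receptors are membrane proteins that are cut when a ligand on a neighbouring cell pulls on them. The freed intracellular domain enters the nucleus and, together with Rbpj, switches on the Hes and Hey repressors. In vessels, Dll4 and Notch1 are known for artery identity and for restraining sprouts, Jag1 for signalling between endothelium and the muscle layer, and Notch3 for the upkeep of pericytes and smooth muscle. Notch4 is known as an endothelial receptor.

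In GENCODE vM21 on GRCm38, Notch1 lies on chromosome 2 from 26457903 to 26516663, Notch3 on chromosome 17 from 32120820 to 32166852 and Notch4 on chromosome 17 from 34564268 to 34588503. Dll4 lies on chromosome 2 from 119325784 to 119335962 and Jag1 on chromosome 2 from 137081456 to 137116644. The target genes are Hey1 on chromosome 3 from 8663359 to 8667256, Hey2 on chromosome 10 from 30832359 to 30842801, Heyl on chromosome 4 from 123233556 to 123249875 and Hes1 on chromosome 16 from 30064384 to 30067796. Rbpj lies on chromosome 5 from 53466152 to 53657362. All 10 are protein coding. Only Notch1 overlaps another annotated gene on its own strand, a microRNA, and 2 processed copies of Rbpj in the annotation are not among the features counted.

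The promoters of Hey2, Notch3 and Dll4 are shown, of which the first 2 are mural and Dll4 is endothelial in the data below, so that the levels below can be read beside the sequence upstream of their start. Each runs over the 250 bases before the start site in RefSeq (GRCm38.p6), on the strand of the gene, with chr10:30842784-30843033 (minus) for Hey2, chr17:32166891-32167140 (minus) for Notch3 and chr2:119325534-119325783 (plus) for Dll4. Capitals mark TGGGAA, the core letters that Rbpj is known to bind, or its complement TTCCCA.
Hey2: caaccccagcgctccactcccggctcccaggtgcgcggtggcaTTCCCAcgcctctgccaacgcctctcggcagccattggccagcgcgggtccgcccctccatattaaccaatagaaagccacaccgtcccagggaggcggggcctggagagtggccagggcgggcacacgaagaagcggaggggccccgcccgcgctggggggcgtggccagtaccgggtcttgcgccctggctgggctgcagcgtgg
Notch3: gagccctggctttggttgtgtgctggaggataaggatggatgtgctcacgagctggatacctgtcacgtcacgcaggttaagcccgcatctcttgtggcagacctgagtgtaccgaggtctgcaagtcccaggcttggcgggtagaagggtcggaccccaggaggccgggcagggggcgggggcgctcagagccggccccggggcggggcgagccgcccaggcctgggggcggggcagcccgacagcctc
Dll4: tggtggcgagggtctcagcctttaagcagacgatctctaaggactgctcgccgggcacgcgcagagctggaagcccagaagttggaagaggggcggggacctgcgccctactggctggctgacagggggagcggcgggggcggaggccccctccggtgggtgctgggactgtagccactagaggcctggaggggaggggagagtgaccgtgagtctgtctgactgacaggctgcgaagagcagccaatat
The table held promoters of 7 of the 10 genes, all but Hey1, Heyl and Hes1. TGGGAA on either strand was found in 2 of these 7, Hey2 with 1 match that lies 207 bases before the start, and Rbpj itself with 2 matches. In all, 21.6% of 32851 mouse promoters of this length hold the letters. CACGTG, a letter group that Hes and Hey proteins are known to bind, was found in 0 of the 7, against 6.02% of all promoters.

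The deposited matrices held 11744 to 17922 cells and 69392755 to 104023002 UMIs per library. After removal of cells with fewer than 200 or more than 3000 genes, or over 10% mitochondrial UMIs, 7562 to 14044 cells per library were left, with median depths of 2507.5 to 3731.5 UMIs. The libraries held 539 to 1096 arterial-like, 1452 to 3818 capillary-like, 276 to 1145 venous-like, 248 to 626 pericyte-like and 564 to 1244 smooth muscle-like cells. Endothelial cells that met no zone rule numbered 1875 of 4720 in the sham library. On day 1, 3 and 7 they numbered 2853 of 6599, 2192 of 5531 and 3385 of 8963. These cells are left out of every zone level and ratio. Pairs of libraries shared 33 to 88 cell barcodes. Markers kept out of the gate followed the zones, with 4 arterial markers (Tm4sf1, Mgp, Clu and Alpl) at a sum of 7629 to 12706 CPM (counts per 1000000 UMIs of the class) in arterial-like cells and 719 to 1193 CPM in capillary-like cells. The 4 capillary markers kept out of the gate differed less, at 2146 to 2858 CPM in capillary-like and 1007 to 1876 CPM in venous-like cells. The venous zone was the least settled, since an independent clustering placed 52.6% of the venous-like cells in its venous clusters, against 87.1% to 96.9% for the other 4 classes. The summed endothelial markers were at 323 to 458 CPM in pericyte-like and 120 to 173 CPM in smooth muscle-like cells, against 22210 to 37199 CPM in the endothelial classes. Pericyte and smooth muscle markers overlapped more, with smooth muscle markers at 725 to 1059 CPM in pericyte-like cells and pericyte markers at 812 to 1505 CPM in smooth muscle-like cells.

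Most members leaned to one layer of the wall. Within the wall, Dll4 and Hey1 were endothelial, Notch4 was mainly so, Notch3, Heyl and Hey2 belonged to pericyte-like and smooth muscle-like cells, and Notch1, Jag1, Hes1 and Rbpj were found in both layers. Dll4 and Notch4 were almost entirely vascular. Cells of the vessel wall held 90.5% to 96.2% of the UMIs of Dll4 and 86.5% to 94.7% of those of Notch4. For these shares the wall takes in the named classes and also the endothelial cells that met no zone rule. In the sham library the latter held 462 of the 1430 UMIs of Dll4 in the wall. Of all UMIs, 64.3%, 43.2%, 61.8% and 66.7% lay in the wall, counted in this way, in the sham library and on day 1, 3 and 7. Rbpj lay close to these shares, at 66.7%, 41.2%, 60.5% and 68.1%. Notch3, at 61.1% to 63.8%, and Hey2, at 62.9% to 67.6%, were also near them except on day 1. In each library 218 to 424 cells had pericytes and smooth muscle as their leading marker lists with neither far enough ahead, were assigned to no class and count as outside the wall.

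**Figure D1:**
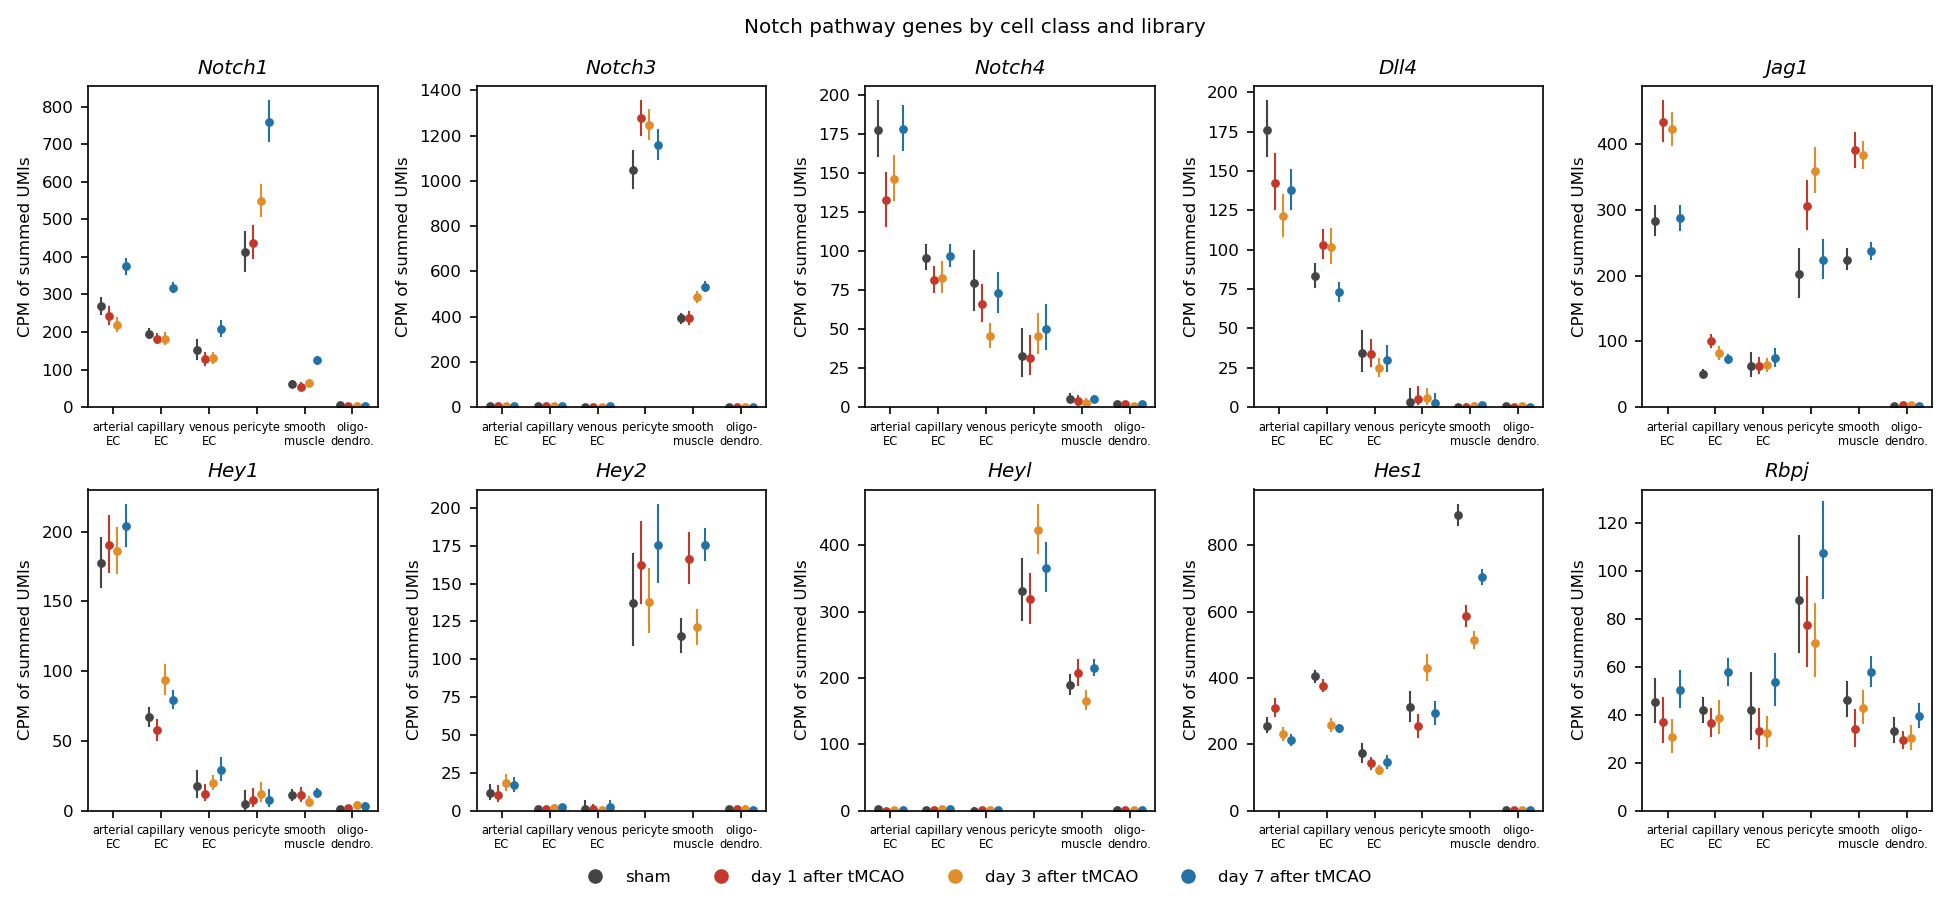
Level of each of the 10 genes (vertical axis, CPM) in the 5 vessel wall classes and in oligodendrocyte-like cells (horizontal axis), with 1 point per library and bars for the 95% counting interval. Notch3 stands at 1050 to 1276 CPM in pericyte-like cells and at most at 7.09 CPM in the endothelial classes, whereas Rbpj lies between 30.8 and 108 CPM in all 5 classes.

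Notch3, the receptor that mural cells depend on, was highest in pericyte-like cells, with 1050, 1276, 1247 and 1161 CPM in the sham library and on day 1, 3 and 7. In smooth muscle-like cells it was at 393, 394, 485 and 533 CPM. The 2 classes did not overlap, and pericyte-like cells stood above smooth muscle-like cells in all 4 libraries. Endothelial cells held almost none, with 3.58 to 7.09 CPM in arterial-like and 3.28 to 5.13 CPM in capillary-like cells, and 0 UMIs in venous-like cells of the sham library, where 3 UMIs would be 3.32 CPM. Venous-like cells of day 1, 3 and 7 held 2, 10 and 10 UMIs, or 0.985, 2.83 and 5.29 CPM. Oligodendrocyte-like cells, which should lack a vascular gene, were at 1.74 to 2.10 CPM. With every cell thinned to 1000 UMIs, 62.1% to 67.8% of pericyte-like cells held a Notch3 UMI, against 31.4% to 39.0% of smooth muscle-like and 0.125% to 0.463% of oligodendrocyte-like cells. Without thinning the shares were 76.2% to 87.1% in pericyte-like and 71.4% to 86.2% in smooth muscle-like cells. Thinning left out 34 to 196 pericyte-like cells per library.

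Notch1 was found in every wall class. In pericyte-like cells it was at 412, 437, 548 and 760 CPM in the sham library and on day 1, 3 and 7, and in arterial-like cells at 268, 243, 220 and 375 CPM. Capillary-like cells held 196, 183, 183 and 318 CPM, venous-like cells 152, 128, 130 and 209 CPM and smooth muscle-like cells 61.1, 54.1, 63.4 and 125 CPM. In each class the day 7 library was the highest. The order pericyte-like, arterial-like, capillary-like, venous-like and smooth muscle-like held in each library. Oligodendrocyte-like cells were at 3.10 to 6.69 CPM, while astrocyte-like cells held 129, 145 and 141 CPM in the sham library and on day 1 and 3.

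Notch4 followed the endothelium. Arterial-like cells held 178, 133, 146 and 179 CPM in the sham library and on day 1, 3 and 7, capillary-like cells 95.9, 81.7, 82.9 and 96.9 CPM and venous-like cells 79.7, 66.0, 45.6 and 73.0 CPM. The arterial-like class was above the other endothelial classes in each library. Pericyte-like cells held 32.6, 31.6, 45.9 and 50.1 CPM, below the endothelial classes except on day 3, when they were level with venous-like cells, and smooth muscle-like cells were lower still, at 2.97 to 5.29 CPM, close to the 0.774 to 1.93 CPM of oligodendrocyte-like cells.

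Dll4, the ligand of arteries and sprouting capillaries, was at 176, 142, 121 and 138 CPM in arterial-like cells of the sham library and of day 1, 3 and 7. Capillary-like cells held 83.5, 103, 102 and 73.1 CPM, and venous-like cells 34.3, 33.5, 24.7 and 30.1 CPM. The arterial-like and capillary-like series drew together on day 1 and 3, when the first was below and the second above its sham value. Zone markers of the gate moved on these days too. The venous markers were at 534, 1193, 977 and 774 CPM in arterial-like and at 245, 492, 426 and 282 CPM in capillary-like cells of the 4 libraries, and the arterial markers at 3906, 2904, 3612 and 4285 CPM in arterial-like cells. The arterial markers kept out of the gate went the other way in arterial-like cells, at 8387, 11592, 12706 and 7629 CPM. The venous markers kept out of it were at 520, 807, 762 and 723 CPM in arterial-like cells. In capillary-like cells they were at 1590, 3009, 1288 and 1147 CPM, so that day 3 was below the sham library. The part of these shifts in the Dll4 values was not tested. Mural cells held little, with 2 to 7 UMIs per library in pericyte-like cells and 0.265 to 1.11 CPM in smooth muscle-like cells, where oligodendrocyte-like cells stood at 0.300 to 0.904 CPM. At 1000 UMIs per cell, Dll4 was seen in 17.4%, 12.5%, 12% and 13.4% of arterial-like cells of the 4 libraries and in 7.36% to 10.9% of capillary-like cells (32.8% to 46.2% and 13.7% to 21.0% without thinning). In oligodendrocyte-like cells the thinned share was at most 0.137%.

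Jag1, the ligand shared by endothelium and muscle, was at 283, 434, 422 and 287 CPM in arterial-like cells of the sham library and of day 1, 3 and 7. Smooth muscle-like cells were at 224, 391, 384 and 238 CPM and pericyte-like cells at 202, 305, 360 and 224 CPM. Capillary-like cells held 50.7, 101, 82.0 and 73.2 CPM. In these 4 classes the libraries of day 1 and 3 were above those of the sham group and day 7. Venous-like cells stayed between 62.6 and 74.5 CPM. Oligodendrocyte-like cells were at 1.45 to 3.31 CPM.

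Hey1, a repressor that Notch induces in arterial endothelium, was at 177, 190, 186 and 204 CPM in arterial-like cells and at 66.8, 57.5, 93.9 and 79.3 CPM in capillary-like cells of the 4 libraries in the same order. Venous-like cells held 17.7, 12.3, 19.6 and 29.1 CPM. In mural cells it did not pass 12.7 CPM. Outside the wall, astrocyte-like cells held 44.6, 41.4 and 61.7 CPM in the sham library and on day 1 and 3, on 9 to 18 UMIs. Ependymal-like cells were at 69.4 CPM on day 1, on 31 UMIs. The zone order was the same as for Dll4 in each library.

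Hey2 and Heyl, of the same family, were mural within the vessel wall. Hey2 was at 137, 163, 138 and 175 CPM in pericyte-like and at 115, 166, 121 and 176 CPM in smooth muscle-like cells, with the ranges of the 2 classes overlapping. Heyl was at 331, 319, 423 and 366 CPM in pericyte-like cells and at 190, 208, 166 and 215 CPM in smooth muscle-like cells, which did not overlap. Hey2 also reached 10.4 to 18.0 CPM in arterial-like cells, where capillary-like cells held 1.03 to 2.41 CPM. Heyl did not pass 2.64 CPM in any endothelial class, with oligodendrocyte-like cells at 0.368 to 0.751 CPM. Outside the wall, astrocyte-like cells held both genes, with Hey2 at 49.6, 18.4 and 110 CPM and Heyl at 39.7, 9.21 and 75.4 CPM in the sham library and on day 1 and 3. These rest on few UMIs, 8 to 32 for Hey2 and 4 to 22 for Heyl.

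Hes1, a repressor downstream of Notch in many tissues, was highest in smooth muscle-like cells, at 891, 586, 514 and 705 CPM in the sham library and on day 1, 3 and 7. Capillary-like cells held 404, 377, 258 and 249 CPM, arterial-like cells 256, 310, 231 and 212 CPM and pericyte-like cells 311, 254, 431 and 293 CPM. Venous-like cells were the lowest, at 173, 142, 123 and 145 CPM. The sham library was the highest of the 4 in smooth muscle-like, capillary-like and venous-like cells, while in arterial-like cells it was day 1 and in pericyte-like cells day 3. Oligodendrocyte-like cells did not pass 2.17 CPM, while astrocyte-like cells held 193, 212 and 137 CPM in the sham library and on day 1 and 3.

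Rbpj, which every Notch receptor acts through, was spread over all classes. It was at 30.8 to 50.4 CPM in arterial-like, 36.5 to 57.8 CPM in capillary-like, 32.6 to 53.9 CPM in venous-like and 34.0 to 58.0 CPM in smooth muscle-like cells. Pericyte-like cells were above these 4 classes in each library, at 88.0, 77.4, 70.0 and 108 CPM. Outside the wall, oligodendrocyte-like cells held 29.4 to 39.5 CPM and microglia-like cells 70.1 to 102 CPM.

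The question of the first comparison was how the pathway differs between zones of the endothelium within one library. A gene was called higher or lower where the ratio of (CPM + 5) passed 1.5-fold and the 95% counting interval of the ratio left out 1, among genes with at least 20 CPM in either class and 20 UMIs in all. Between arterial-like and capillary-like cells, 4, 3, 3 and 4 of the 7 members tested were higher in the arterial-like class in the sham library and on day 1, 3 and 7, where 7.65%, 7.44%, 7.26% and 7.37% of all genes tested were. Jag1 was higher by 5.58, 4.32, 5.15 and 3.93 times, Hey1 by 2.66, 3.31, 1.98 and 2.57 times and Notch4 by 1.86, 1.62, 1.77 and 1.84 times, each in 4 of 4 libraries. Dll4 was higher by 2.11 times (1.85 to 2.40) in the sham library and by 1.89 times (1.67 to 2.13) on day 7, and its ratios of 1.38 (1.18 to 1.60) on day 1 and 1.19 (1.03 to 1.39) on day 3 did not reach the limit. The interval of the sham ratio lies above those of day 1 and day 3 and overlaps that of day 7. Hes1 ran the other way in the sham library, at 0.634 of the capillary-like level, where 6.68% of genes were lower, and was not called on day 1, 3 or 7, with ratios of 0.822, 0.895 and 0.853. No member was lower on those days, beside 9.5%, 10.2% and 7.11% of genes.

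Arterial-like over venous-like cells gave 5, 6, 6 and 5 higher members of 7 in the sham library and on day 1, 3 and 7, beside 8.92%, 11.1%, 11.6% and 7.98% of all genes tested, and 0 lower members, beside 12.2%, 8.74%, 9.8% and 8.98%. Dll4 stood 5.14, 4.25, 4.92 and 4.57 times higher and Jag1 4.48, 6.94, 6.62 and 3.86 times higher. Notch1 was higher by 1.77, 1.91, 1.69 and 1.79 times and Notch4 by 2.23, 2.01, 3.21 and 2.45 times. Hey1 was higher by 15.5 times on day 1 and by 7.01 times on day 7. Venous-like cells were also below capillary-like cells for 3, 4, 4 and 4 of the 7 members, where 5.92%, 8.17%, 8.61% and 4.27% of genes were lower, and above them for 0, where 8.44%, 4.86%, 5.93% and 6.14% were higher. Dll4, Hes1 and Hey1 were lower there in all 4 libraries, Dll4 at 0.411, 0.324, 0.243 and 0.413 of the capillary-like level. Rbpj was not called between any pair of endothelial zones.

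**Figure D2:**
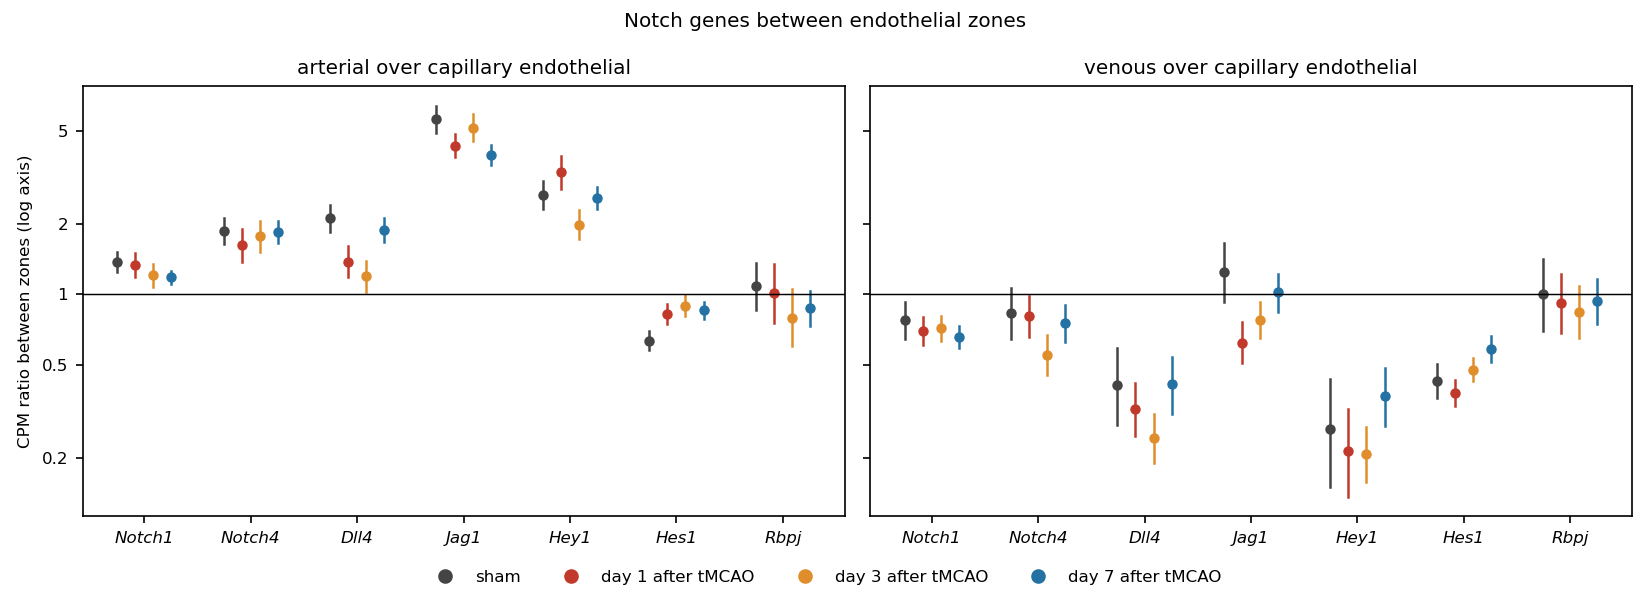
Ratio of the level in arterial-like over capillary-like and venous-like over capillary-like cells (vertical axis, log scale) for the members tested. There is 1 point per library, with bars for the 95% counting interval. In arterial-like over capillary-like cells the 4 libraries of Jag1 lie between 3.93 and 5.58. Dll4 there falls from 2.11 in the sham library to 1.19 on day 3 before it stands at 1.89 on day 7.

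In the mural layer, smooth muscle-like cells were set against pericyte-like cells of the same library. Of 8 members tested, 5 were lower in smooth muscle-like cells in each library, where 42.6%, 48.3%, 47.6% and 45.7% of all genes tested were lower too. Notch3 stood at 0.374, 0.308, 0.389 and 0.459 of the pericyte-like level, Notch1 at 0.148, 0.124, 0.116 and 0.164 and Heyl at 0.574, 0.652, 0.392 and 0.588. Hes1 was the one member that was higher in smooth muscle-like cells, by 2.86 times in the sham library, 2.31 times on day 1 and 2.41 times on day 7, where 12.8%, 10.9% and 12.9% of genes were higher. On day 3 its ratio was 1.19 (1.08 to 1.32). Hey2 and Jag1 were not called, with ratios of 0.841 to 1.02 and 1.06 to 1.28. On day 3, when 0 of 8 members were higher, 12.6% of genes were.

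Across the layers, pericyte-like cells were compared with the capillary-like cells they wrap. Of 10 members, 6, 6, 7 and 6 were higher in pericyte-like cells in the sham library and on day 1, 3 and 7, beside 24.2%, 26.9%, 26.4% and 25.7% of all genes tested, and 3 were lower in each library, beside 20.3%, 19.1%, 19.4% and 19.8%. Notch3 was higher by 247 to 320 times, Jag1 by 3.99, 3.04, 4.38 and 3.07 times and Notch1 by 2.11, 2.39, 3.00 and 2.39 times. Hes1 was higher on day 3, by 1.67 times, and not called in the other libraries, with ratios of 0.770, 0.675 and 1.18 in the sham library and on day 1 and 7. Smooth muscle-like over arterial-like cells gave 4 members higher and 4 lower in each library, where 17.4%, 17.2%, 18.3% and 17.2% of genes were higher and 38.3%, 38.8%, 34.8% and 35.8% lower. Hes1 was higher in the muscle layer by 3.48, 1.89, 2.22 and 3.32 times, and Notch1 was lower, at 0.228, 0.222, 0.288 and 0.333 of the arterial-like level. Jag1 was not called there, with ratios of 0.794 to 0.908.

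The second question was how each gene stood on day 1, 3 and 7 against the sham library within one class. The same limit was used, and "rose" and "fell" below are kept for genes past it. Of 50 pairs of member and class, 35, 35 and 36 were tested on day 1, 3 and 7. Among these pairs 3, 3 and 4 rose, where 4.73% to 8.14%, 2.64% to 6.67% and 8.4% to 14.9% of all genes rose over the 5 classes, and 1, 3 and 1 fell, where 6.73% to 19.8%, 2.18% to 13.6% and 3.49% to 5.44% of all genes fell. The rest were too low, which was so of Notch3, Hey2 and Heyl in the endothelial classes, of Dll4 and Hey1 in both mural classes, of Notch4 in smooth muscle-like cells and of Hey1 in venous-like cells on day 1 and 3.

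**Figure D3:**
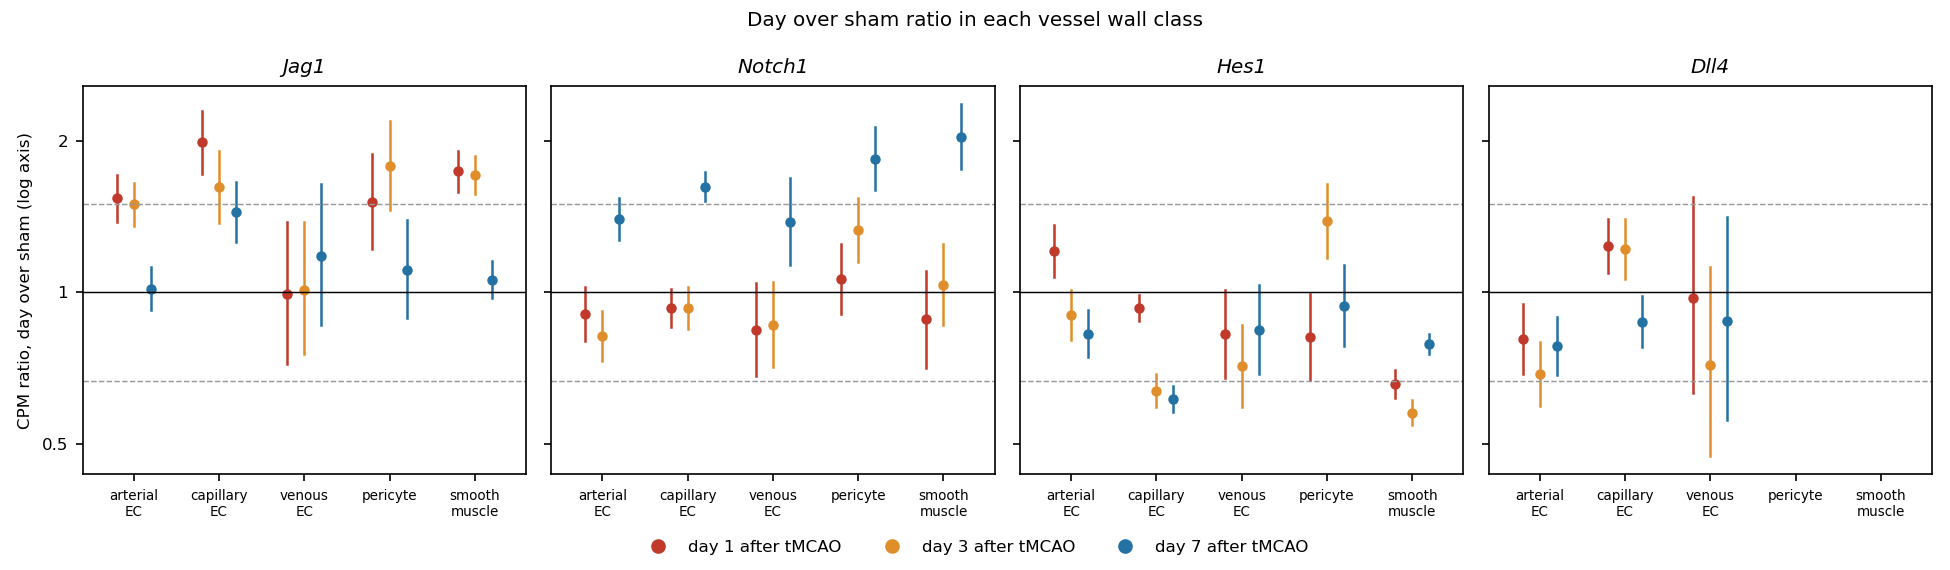
Ratio of each day to the sham library (vertical axis, log scale) for Jag1, Notch1, Hes1 and Dll4. Points are given for those of the 5 classes in which the gene was tested, with bars for the 95% counting interval. Jag1 stands at 1.98 in capillary-like cells on day 1 and at 1.74 in smooth muscle-like cells on day 1, Notch1 at 2.04 in smooth muscle-like cells on day 7, and Hes1 at 0.577 in smooth muscle-like cells on day 3.

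Jag1 was the member that rose on day 1 and 3. On day 1 it rose 1.54 times (1.38 to 1.71) in arterial-like cells, where 5.43% of genes rose, a call lost with another venous rule (log2 ratio 0.57), and 1.98 times (1.72 to 2.29) in capillary-like cells, where 4.96% rose. In smooth muscle-like cells it rose 1.74 times (1.58 to 1.91), beside 4.73% of genes. Jag1 was the 1 member that rose on day 1. In pericyte-like cells the ratio of 1.51 (1.22 to 1.88) did not pass the limit on the scale of CPM + 5, and 0 of 8 members rose there, beside 8.14% of genes. None of the 8 fell in pericyte-like cells on day 1, 3 or 7, beside 7.21%, 3.77% and 4.96% of genes.

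On day 3 Jag1 rose 1.62 times (1.38 to 1.90) in capillary-like cells, 1.78 times (1.46 to 2.19) in pericyte-like cells and 1.71 times (1.57 to 1.86) in smooth muscle-like cells, where 4.65%, 6.13% and 2.64% of genes rose. The capillary-like call was lost in the independent clusters (log2 ratio 0.58) and with another venous rule (0.56), and the pericyte-like call with a stricter gate (0.43). In arterial-like cells its ratio was 1.49 (1.36 to 1.65), and 0 of 7 members rose, beside 3.47% of genes. By day 7 the ratios were 1.02 (0.92 to 1.12), 1.11 (0.89 to 1.39) and 1.06 (0.97 to 1.15) in arterial-like, pericyte-like and smooth muscle-like cells. Capillary-like cells were still at 1.44 (1.26 to 1.66), within the limit. In venous-like cells the ratios of the 3 days were 0.99, 1.01 and 1.18, each with an interval that held 1.

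In cells thinned to 1000 UMIs, Jag1 was seen in 4.89%, 9.77%, 7.65% and 7.30% of capillary-like cells and in 20.6%, 29.1%, 30.6% and 21.5% of smooth muscle-like cells of the sham library and of day 1, 3 and 7. In oligodendrocyte-like cells the share was 0.0926% to 0.428%. Without thinning, the capillary-like shares were 14.6%, 16.0%, 16.7% and 14.0% and the smooth muscle-like shares 67.0%, 65.6%, 75.7% and 61.0%. The smooth muscle-like result moved with the limit on mitochondrial UMIs. At a limit of 5%, which left 67 of 564 smooth muscle-like cells of the sham library, the log2 ratio was 0.33 on day 1 and 0.27 on day 3, and neither passed the limit.

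Notch1 rose on day 7. In capillary-like cells it rose 1.62 times (1.52 to 1.74), where 11.3% of genes rose, a call lost in the independent clusters (log2 ratio 0.54). In pericyte-like cells it rose 1.84 times (1.60 to 2.13), beside 12.7% of genes, and in smooth muscle-like cells 2.04 times (1.76 to 2.37), beside 14.9%. Arterial-like and venous-like cells were at 1.40 (1.27 to 1.54) and 1.38 (1.13 to 1.69), where 0 of 7 members rose in either class, beside 8.86% and 8.4% of genes. All 5 ratios of day 7 were above 1 with intervals that left out 1. On day 1 none of the 5 Notch1 ratios passed the limit, with a range of 0.842 to 1.06. The thinned share of smooth muscle-like cells with a Notch1 UMI was 5.34%, 5.35%, 6.28% and 12.2% in the 4 libraries (30.3%, 19.5%, 28.8% and 43.2% without thinning), against 0.333% to 0.823% of oligodendrocyte-like cells.

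Hes1 fell. In smooth muscle-like cells it fell to 0.658 (0.62 to 0.70) of the sham level on day 1, where 8.34% of genes fell, and to 0.577 (0.54 to 0.61) on day 3, where 2.18% fell. On day 7 it was at 0.791 (0.76 to 0.83), within the limit, and 0 of 7 members fell in that class, beside 3.49% of genes. In capillary-like cells it fell to 0.638 (0.59 to 0.69) on day 3 and 0.615 (0.58 to 0.65) on day 7, beside 3.51% and 3.6% of genes (the second was at a log2 ratio of -0.58, within the limit, in the independent clusters), after 0.931 (0.88 to 0.99) on day 1, when 0 of 7 members fell and 6.73% of genes did. Pericyte-like cells went another way on day 3, with a ratio of 1.38 (1.17 to 1.64), and arterial-like cells on day 1, with 1.21 (1.08 to 1.36).

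Thinned to 1000 UMIs, 45.5%, 38.8%, 32.0% and 40.5% of smooth muscle-like and 27.1%, 26.9%, 19.9% and 18.0% of capillary-like cells held a Hes1 UMI, against 0.125% to 0.274% of oligodendrocyte-like cells. Without thinning the shares were 83.3%, 68.9%, 71.1% and 73.1% of smooth muscle-like cells and 48.2%, 34.9%, 33.6% and 29.0% of capillary-like cells. The call of day 1 in smooth muscle-like cells was lost under 4 alternatives besides a fold limit of 2, with log2 ratios of -0.44 to -0.58, while that of day 3 held under each alternative except a fold limit of 2. Hes1 can respond to the handling of cells as well as to Notch, as immediate-early genes do. The summed level of 8 such genes (Fos, Fosb, Jun, Junb, Egr1, Ier2, Atf3 and Dusp1) was 13539, 12945, 15250 and 18324 CPM in smooth muscle-like cells and 12085, 10574, 9724 and 13123 CPM in capillary-like cells of the sham library and of day 1, 3 and 7. In pericyte-like cells it was 7736, 4397, 2375 and 5111 CPM. The part of these genes in the Hes1 values was not tested.

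Dll4 did not pass the limit in any class, but its ratios lay on opposite sides of 1 in the arterial-like and capillary-like zones on day 1 and 3. In arterial-like cells it was at 0.808 (0.69 to 0.95), 0.689 (0.59 to 0.80) and 0.782 (0.68 to 0.89) of the sham level on day 1, 3 and 7. In capillary-like cells it was at 1.24 (1.09 to 1.40), 1.22 (1.06 to 1.40) and 0.875 (0.78 to 0.98). None of the members fell in arterial-like cells on day 1, 3 or 7, beside 9.64%, 4.74% and 4.05% of genes.

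Notch4 fell to 0.573 (0.43 to 0.77) in venous-like cells on day 3, where 13.6% of genes fell. In venous-like cells the median log2 ratio of all genes tested was -0.19 on day 1 and -0.10 on day 3, and this ratio is to be read against that shift. Marker levels of the venous-like cells moved in that library too. The 4 arterial markers kept out of the gate were at 2678 CPM against 924 to 1313 CPM in the other libraries and smooth muscle markers at 508 CPM against 154 to 210 CPM. The arterial markers of the gate were at 105 CPM, within the 55.7 to 134 CPM of the others, and the capillary markers were the lowest of the 4 libraries, at 1781 CPM for those of the gate and 1007 CPM for those kept out of it. The venous markers themselves were the highest, at 7509 CPM against 3733 to 4195 CPM for those of the gate and 12682 CPM against 5530 to 7725 CPM for those kept out of it. The part of this in the ratio was not tested. The call was lost with a limit of 6000 genes per cell (log2 ratio -0.45) and in the independent clusters (-0.56). In arterial-like cells Notch4 was at 0.745 (0.63 to 0.88) on day 1 and 0.823 (0.72 to 0.95) on day 3, within the limit.

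Hey2 rose 1.52 times (1.36 to 1.71) in smooth muscle-like cells on day 7, just past the limit, after 1.44 (1.26 to 1.66) on day 1 and 1.05 on day 3. The call was lost under 3 alternatives besides a fold limit of 2, with log2 ratios of 0.52 to 0.57. Heyl, Notch3, Rbpj and Hey1 were not called in any class or on any day. Hey1 in venous-like cells on day 7 passed 1.5-fold, with a ratio of 1.64, but its interval of 0.93 to 3.07 held 1. The ratios farthest from 1 among the tested pairs whose interval left out 1 were Hey1 at 1.41 (1.21 to 1.63) in capillary-like cells on day 3, Notch3 at 1.36 (1.28 to 1.44) in smooth muscle-like cells on day 7, Heyl at 1.28 (1.09 to 1.51) in pericyte-like cells on day 3 and Rbpj at 0.679 (0.50 to 0.91) in arterial-like cells on day 3.

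Across the members tested, the median log2 ratio ran from -0.36 in venous-like cells on day 3 to 0.38 in pericyte-like cells on day 3. The median of all genes tested was -0.10 and 0.10 in these comparisons. It ran from -0.19 in venous-like cells on day 1 to 0.11 in pericyte-like cells on day 7 over the 15 comparisons. In arterial-like cells the members' median was -0.14, -0.27 and 0.02 on day 1, 3 and 7, beside -0.07, -0.003 and 0.06 for all genes. In smooth muscle-like cells it was 0.00, 0.05 and 0.30, beside -0.08, 0.06 and 0.09. Only a few members per class thus stood beyond the limit, and these were Jag1 on day 1 and 3, Notch1 and Hey2 on day 7, and Hes1 and Notch4 among those that fell.

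The rest of the pathway was read from a list of 47 genes that holds other ligands and receptors, glycosyltransferases that tune ligand choice, ubiquitin ligases and proteases that act on ligand and receptor, coactivators, corepressors and other targets. Of these, 22 to 32 were tested per class and day. The alternatives in the closing section were run for the 10 members only, so the calls of other genes were not checked in that way. Genes at low levels rest on few UMIs in the small classes. In the sham library 20 UMIs of Notch4 were 32.6 CPM in pericyte-like cells, and 31 UMIs of Dll4 were 34.3 CPM in venous-like cells. In arterial-like cells 1 of 28, 0 of 29 and 5 of 29 rose on day 1, 3 and 7, where 5.43%, 3.47% and 8.86% of all genes rose, and 2, 1 and 0 fell, where 9.64%, 4.74% and 4.05% fell. In capillary-like cells 3 of 31, 2 of 30 and 3 of 29 rose, beside 4.96%, 4.65% and 11.3% of all genes, and 2, 2 and 1 fell, beside 6.73%, 3.51% and 3.6%. Venous-like cells had 3 of 30, 3 of 30 and 3 of 29 that rose and 9, 4 and 1 that fell, where 7.34%, 6.67% and 8.4% of all genes rose and 19.8%, 13.6% and 5.44% fell. Pericyte-like cells had 6 of 32, 3 of 32 and 8 of 31 that rose, beside 8.14%, 6.13% and 12.7%, and 1, 0 and 2 that fell, beside 7.21%, 3.77% and 4.96%. Smooth muscle-like cells had 3 of 23, 1 of 22 and 7 of 24 that rose, beside 4.73%, 2.64% and 14.9%, and 1, 0 and 1 that fell, beside 8.34%, 2.18% and 3.49%.

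Among the receptors, Notch2 was at 45.8, 107, 114 and 85.1 CPM in smooth muscle-like cells of the sham library and of day 1, 3 and 7, and rose 2.33, 2.48 and 1.86 times. In pericyte-like cells it was at 39.1, 66.5, 74.8 and 55.6 CPM and rose 1.70 times on day 1 and 1.91 times on day 3. Capillary-like cells showed the same order at a lower level, with 9.23 CPM in the sham library, 21.1 CPM on day 1 and 24.0 CPM on day 3. The sham library was thus the lowest for Notch2 in these 3 classes, with day 3 the highest, as it was for Jag1 in pericyte-like cells.

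Among the other targets, Nrarp, an ankyrin repeat protein that dampens Notch signalling, was at 36.5, 80.2, 47.8 and 44.4 CPM in arterial-like cells and rose 2.19 times on day 1. In capillary-like cells it was at 9.23, 31.0, 13.3 and 11.1 CPM and rose 3.36 times on day 1. In venous-like cells it went from 6 UMIs in the sham library to 84 on day 1, a ratio of 6.23. Day 1 was the highest library in each endothelial class, while mural cells, at 105 to 208 CPM, showed no call on any day.

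Among the other ligands, Jag2 was endothelial, at 517, 428, 452 and 556 CPM in arterial-like cells and at most at 8.34 CPM in mural cells, and rose 1.53 times in venous-like cells on day 7. Dll1 fell in venous-like cells to 0.350, 0.476 and 0.358 of the sham level of 31.0 CPM on day 1, 3 and 7. Lfng, a glycosyltransferase that favours Delta over Jagged ligands, was at 87.4, 37.9, 20.1 and 84.6 CPM in venous-like cells, and fell to 0.434 on day 1 and 0.230 on day 3. The libraries of day 1 and 3 were thus the low ones for Lfng, as they were in capillary-like cells, at 40.2, 28.1, 24.0 and 49.6 CPM. Its relatives fell in 1 class each, Mfng to 0.631 in capillary-like cells and Rfng to 0.579 in smooth muscle-like cells, both on day 7. All venous-like ratios of day 1 and 3 are to be read against the median shift of that class given above for Notch4. Its marker levels moved on day 3 as well, as given there, and the part of this in the ratios was not tested.

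In the machinery, Mib1, the ubiquitin ligase that lets ligands be pulled into the signalling cell, rose on day 7 in all 5 classes, by 1.57, 1.95, 1.61, 1.58 and 2.23 times in arterial-like, capillary-like, venous-like, pericyte-like and smooth muscle-like cells. On that day 8.4% to 14.9% of all genes rose per class. The 5 classes come from the same libraries, and the share of all genes that rose in all 5 was not determined. It also rose on day 1 in capillary-like cells, from 46.3 to 80.3 CPM, and in pericyte-like cells, from 50.5 to 80.7 CPM. Neurl1b, a further ubiquitin ligase for ligands, fell to 0.391 in pericyte-like cells on day 7, from 26.1 to 10.2 CPM. Both of these levels rest on few UMIs.

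Among the coactivators, Ep300, an acetyltransferase of the Rbpj complex, rose on day 7 in all but the venous-like class, by 1.66 to 2.49 times, and fell in venous-like cells on day 1, from 95.1 to 59.1 CPM. Kat2b, another acetyltransferase, rose 2.57 times in pericyte-like cells on day 1, from 21.2 to 54.5 CPM, with few UMIs behind the sham level. It also rose 1.60 times in smooth muscle-like cells on that day, and 1.85 times in both smooth muscle-like and venous-like cells on day 7. Among the proteases, Adam10, the protease that cuts the receptor once a ligand has pulled on it, rose in pericyte-like cells on day 1, 3 and 7, by 1.65, 1.96 and 1.83 times, and in smooth muscle-like cells on day 1 and 7, by 1.78 and 2.08 times. Aph1b, a subunit of γ-secretase, rose in pericyte-like cells on all 3 days, by 1.85, 1.74 and 1.87 times. Ncstn, another subunit of γ-secretase, rose in pericyte-like cells on day 1 and 7, by 1.77 and 1.67 times, and in venous-like cells on day 1 and 3, by 1.83 and 1.81 times. Snw1, which works both in the Rbpj complex and in splicing, fell on day 1 in all 5 classes, to between 0.484 and 0.645 of the sham level, and in venous-like cells on day 3, to 0.626. On day 1, 6.73% to 19.8% of all genes fell per class, and the share that fell in all 5 was not determined. Among the corepressors and inhibitors, Dtx3, of the Deltex family, rose on day 3, from 34.7 to 75.1 CPM in capillary-like cells and from 24.3 to 68.0 CPM in venous-like cells. Fbxw7, which marks the Notch intracellular domain for breakdown, fell to 0.490 and 0.470 in venous-like cells on day 1 and 3 and rose 1.59 times in arterial-like cells on day 7. Numb, an endocytic inhibitor of Notch, fell to 0.493 in venous-like cells on day 1 and rose 1.87 times in pericyte-like cells on day 7.

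**Figure D4:**
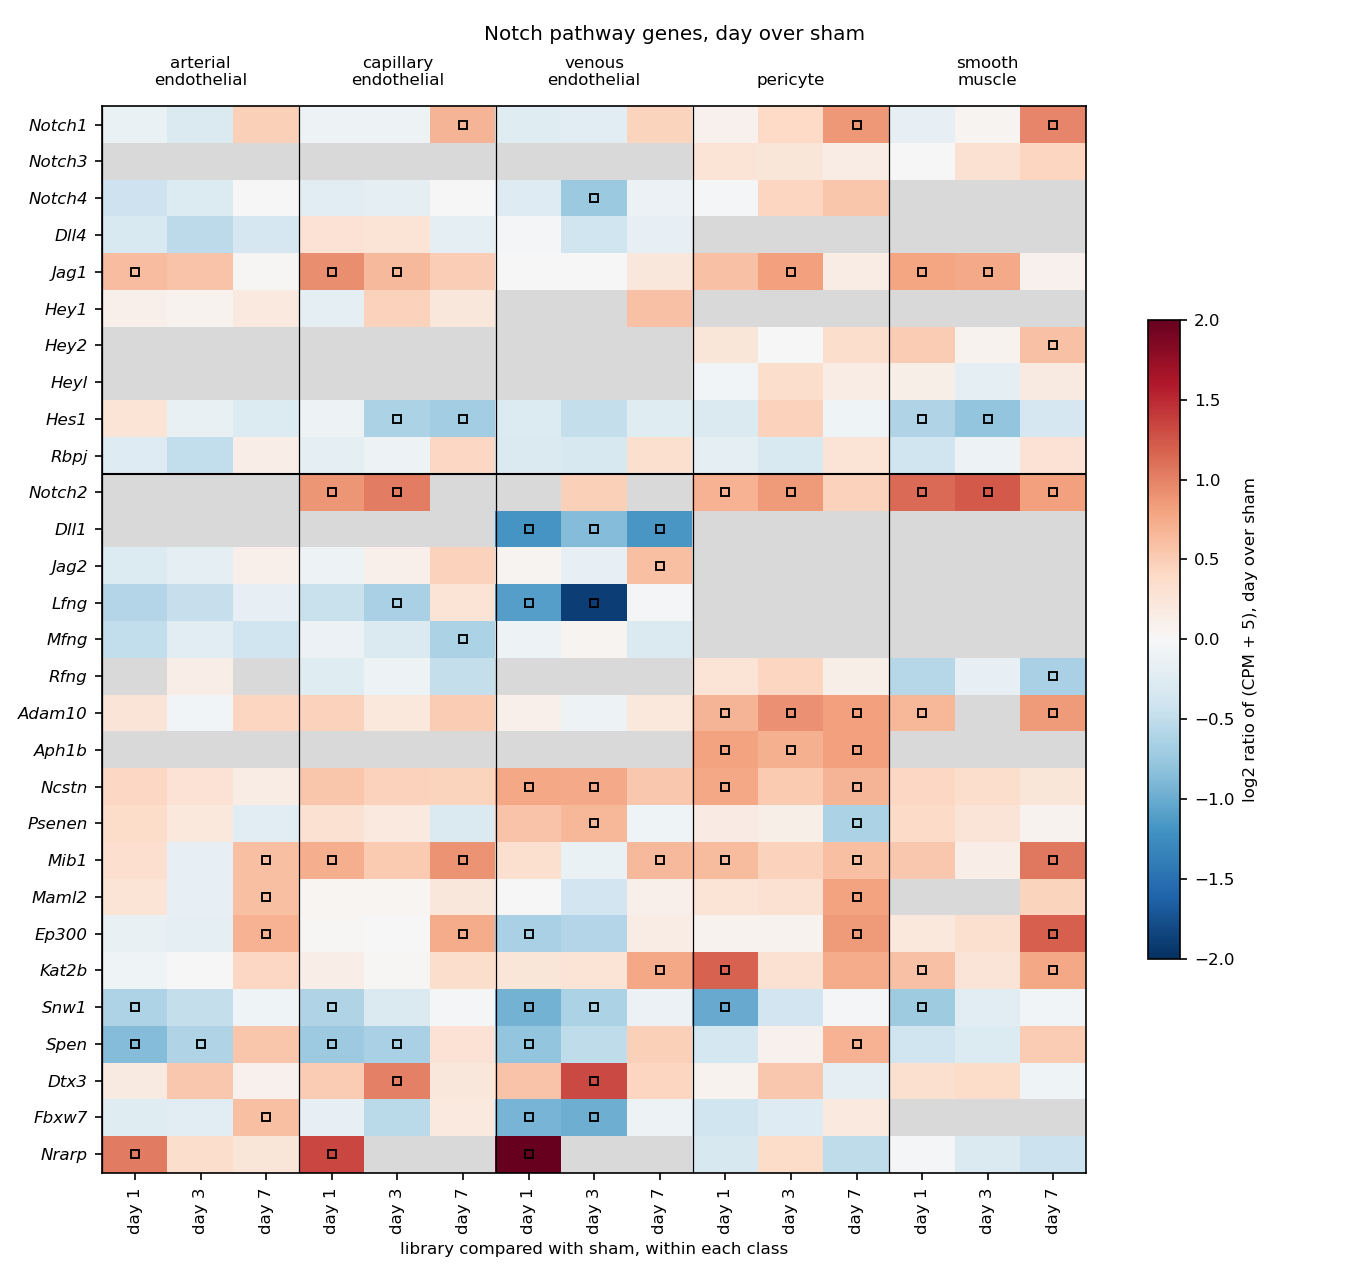
Log2 ratio of (CPM + 5) of each day over the sham library (colour) for the 10 members (above the line) and 19 further genes of the pathway, in the 5 classes and on the 3 days (columns). Black squares mark pairs past the fold limit and grey marks pairs too low to compare, so that Jag1 is marked on day 1 and 3, Notch1 on day 7, and Mib1 on day 7 in all 5 classes and on day 1 in 2 of them.

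Genes that are linked with arterial identity and Notch were read from a list of 8 (Efnb2, Gja4, Gja5, Nrp1, Cxcr4, Sox17, Unc5b and Epas1). In arterial-like cells 2 of 7 tested fell on day 1, Unc5b to 0.538 and Nrp1 to 0.527, and 2 of 7 fell on day 3, Unc5b to 0.501 and Efnb2 to 0.651, where 9.64% and 4.74% of all genes fell. Gja5, a gap junction protein of arterial endothelium, rose 1.60 times on day 3, where 3.47% of all genes rose. On day 7 0 of 7 rose and 0 fell, beside 8.86% and 4.05%. Nrp1 fell further on day 1 in capillary-like cells, to 0.390, and in venous-like cells, to 0.272.

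Likeness of pattern was measured as Pearson's r of log2(CPM + 5) over 32 sums, of 8 classes in 4 libraries, among 8724 genes. The sums share libraries and depth, so r is a description. Notch3 was most like Tbx2 (r = 0.994), Heyl (0.994) and Ednra (0.993), the endothelin receptor of contractile cells, and Heyl was most like Tbx18 (0.995), Tbx2 (0.994) and Notch3 (0.994). Hey2 was most like Lrig1 (0.963), Tbx18 (0.962) and Notch3 (0.961). On the endothelial side, Dll4 was most like Sox17 (0.973), an endothelial transcription factor, Rad54b (0.965) and Ly6c1 (0.963), which is a marker of the gate. Hey1 was most like Alpl (0.939), Lmo7 (0.935) and Kank4 (0.927), and Notch4 most like Plscr2 (0.967), Adgrf5 (0.964) and Cgnl1 (0.960).

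The members found in both layers had other neighbours. Jag1 was most like S100a11 (r = 0.949), Ebf1 (0.945) and Ehd2 (0.944), Notch1 most like Rbms1 (0.965), Cyth3 (0.964) and Tmod3 (0.961), and Hes1 most like Rras (0.972), Cnn2 (0.969) and Lamb2 (0.969).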

How the data were processed

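Single cells of 4 libraries, 1 per group, were analysed. The authors deposited filtered matrices of UMI counts with no normalization, written by Cell Ranger 4.0.0 according to the matrix headers, whereas the submitters' notes name Cell Ranger 3.0.1 and Seurat 4.1.2. The notes name a human build, but the gene identifiers are those of the mouse. The 10 members and all gene lists were chosen with earlier results of these data known.

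Each kept cell was assigned to the class, of 17 with 8 markers each, of which it held most markers (at least 2, and at least 2 times the runner-up). Endothelial cells were placed in zones by 6 further markers per zone, and those that met no zone rule were kept apart. Members were named in every wall class, of further pathway genes those past the fold limit (up to 3 per role, by their largest log2 ratio), and the 3 genes most like each member, of which those for Rbpj are not reported here. Counts were summed per class and library and given as CPM with exact Poisson intervals, ratios with exact conditional and shares with exact binomial (Clopper-Pearson) intervals at 95%. PCR and droplet losses are not covered. In data simulated for the 15 comparisons of a day with the sham library (5346 to 6771 genes), 88% to 100% of genes raised 2-fold and 66% to 98% of genes lowered to 0.5 of their level were recovered, and up to 3.17% of unchanged genes were called. The simulated counts held counting error only, so differences between mice, preparations or libraries are not in these rates. Python 3.11.15, numpy 2.4.6, pandas 2.3.3, scipy 1.17.1, scanpy 1.11.5 and matplotlib 3.10.9 were used.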

Additional observations from a re-analysis of the deposited data

Results flagged for a closer look

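Among the tested pairs, Hes1, Dll4, Notch1 and Heyl had a ratio of a day to the sham library that split between classes. The counting interval lay above 1 in one class and below 1 in another. No fold limit was used here, and the share of all genes with such a split was not determined. Each class is 1 library per day, so the difference between classes was not tested. Hes1 gave such a split on 2 days. On day 1 it was at 1.21 in arterial-like cells, against 0.931 in capillary-like, 0.816 in pericyte-like and 0.658 in smooth muscle-like cells. On day 3 pericyte-like cells were at 1.38, against 0.638 in capillary-like, 0.713 in venous-like and 0.577 in smooth muscle-like cells. Dll4 was at 1.24 in capillary-like and 0.808 in arterial-like cells on day 1, and at 1.22 and 0.689 on day 3. Notch1 on day 3 was at 1.33 in pericyte-like and 0.819 in arterial-like cells. Heyl on day 3 was at 1.28 in pericyte-like and 0.874 in smooth muscle-like cells.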

How the results depend on the processing

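The calls of a member in a class on a day numbered 15 (10 rises and 5 falls), and all 15 kept their direction under every alternative run. Apart from a fold limit of 2, which left 0 of them on any day in either direction, 9 to 15 of the 15 stayed past the limit, fewest in the independent clusters. With those clusters, there were 5 rises on day 1 in place of 3, and 0 falls on day 1 or on day 7 in place of 1. With at most 5% mitochondrial UMIs, there were 2 falls on day 1 and 2 on day 7. A limit of 6000 genes and centring on the median gene each left 0 falls on day 1, and subtraction of the oligodendrocyte-like level gave 2. The shift taken off by that centring passed 0.1 only in venous-like cells, at -0.18 on day 1 and -0.13 on day 3 (log2). The 1 member below capillary-like cells in arterial-like cells of the sham library, Hes1, became 0 with 6000 genes and with a stricter gate. The cause of these shifts was not tested. The losses of Jag1, Hes1 and Hey2 in smooth muscle-like cells and of Notch4 in venous-like cells are given above. Other single calls lost were Jag1 in arterial-like cells on day 1 with another venous rule (log2 0.57), in pericyte-like cells on day 3 with the stricter gate (0.43) and in capillary-like cells on day 3 in the clusters (0.58) and with another venous rule (0.56). In the clusters Notch1 in capillary-like cells on day 7 was at 0.54 and Hes1 there at -0.58. Over the alternatives the arterial-like to capillary-like ratio of Dll4 stayed at 1.81 to 2.35 in the sham library and 1.11 to 1.31 on day 3.

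No paired analysis was possible because there is 1 library per group. Leaving out the doublets called by Scrublet was not run, since the caller marked 0.0142% to 0.225% of cells in 3 libraries and 4.61% on day 1. The 5% of cells with the highest scores were left out instead, and this and the minimum of 1000 UMIs were chosen after seeing the data. Both kept all 15 calls.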
